A study of Mus musculus with 2 samples.

Results

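The glycolysis and hypoxia response genes described here are 32 genes chosen by symbol, of 28692 in the deposited matrices: 3 carriers of glucose and lactate (Slc2a1, Slc16a1 and Slc16a3), 15 glycolytic enzymes from Hk1 to Pkm, 4 lactate dehydrogenases and regulators (Ldha, Ldhb, Pdk1 and Pfkfb3), 3 genes of oxygen sensing (Hif1a, Egln1 and Egln3) and 7 genes known to be induced by hypoxia (Bnip3, Bnip3l, Ndrg1, Ankrd37, Adm, Ero1l and Ddit4). All 32 were found. Single lung cells were profiled in droplets, and each transcript was counted once by its molecular identifier (UMI). The cells came from the lungs of mice of genotype Lepr-Cre;Rosa26-tdtomato, 8-10 weeks old. Both groups carried these alleles, in which Cre driven by the leptin receptor gene switches on the red reporter for good, so a sorted cell need not express Lepr at the time of the sort. One group was given saline and the other bleomycin, a drug used to produce lung fibrosis, and 1 library of tdTomato-positive cells was made from each. The sources used here give neither the number of mice nor the dose nor the day.

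Glycolysis splits glucose into pyruvate in the cytosol, and lactate dehydrogenase regenerates the NAD it consumes by turning pyruvate into lactate, which leaves the cell through monocarboxylate transporters. When oxygen falls, the EGLN prolyl hydroxylases stop marking the HIF alpha subunits for destruction, and HIF raises transcription of many glycolytic enzymes along with genes such as Bnip3, Adm and Ankrd37. In fibrotic lung, myofibroblasts are known to lean on glycolysis, and the capillary endothelium is among the cells with a well-described HIF response.

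The deposited barcodes numbered 5455 after saline, with 37570380 UMIs, and 4473 after bleomycin, with 61537182. Of these, 5195 and 4308 were kept as cells, with medians of 6300 and 12271 UMIs. Of the barcode sequences, 33 occurred in both libraries. Cells were clustered without the 32 genes, and a cluster name such as fibroblast means a cell like that type by its markers: in the fibroblast clusters 63.0 to 85.8% of cells, averaged over the fibroblast markers, held a UMI of the marker, in the endothelial clusters 75.6 to 87.4% and in the alveolar macrophage clusters 82.7 to 88.5%. A level, in UPM, is a gene's UMIs summed over a class and divided by all UMIs of the class in that library, times 1000000. It is a share of the class's transcripts and does not give molecules per cell. Values in square brackets are exact 95% intervals for counting error alone. Ratios are on the log2 scale with a prior of 1 UPM. A gene counted as measured with at least 50 UMIs in both sides together and a mean of at least 10 UPM. A measured gene is called higher or lower at a ratio of at least 2-fold. A gene under 10 UPM on 1 side is thus measured only when its level on the other side is high enough. With 1 library per group there is no spread between mice and no test was made. Levels of different genes are not compared, since counts at the 3′ end depend on the gene.

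In fibroblasts as a whole (3565 saline and 3516 bleomycin cells), the bleomycin library had more transcripts of late glycolytic enzymes and of Ddit4, and less of Ldhb and Pfkfb3. Of the 32 genes 26 were measured, and 4 were called higher and 2 lower. Over all 7662 measured genes 5.14% were called higher and 8.13% lower, so the share of members called lower was near that of all genes. At 1.5-fold, 8 members were higher and 5 lower, with 12% and 16.3% of all measured genes. The median log2 ratio was 0.12 for the 26 genes and -0.03 for all genes. The 32 genes together made up 2700 UPM after saline and 3575 after bleomycin.

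No carrier passed the 2-fold line in fibroblasts. Slc2a1, the basal glucose carrier GLUT1, had 15.2 [13.7 to 16.8] UPM in saline and 18.7 [17.6 to 19.95] in bleomycin fibroblasts. Slc16a1, the lactate carrier MCT1, had 7.38 [6.37 to 8.50] and 15.5 [14.5 to 16.6], a log2 ratio of 0.98 just under the 2-fold line. Slc16a3, the lactate exporter MCT4 of glycolytic cells, was under the floor with 2.37 and 2.19 UPM. Of the 3 carriers Slc16a1 lay nearest to a call.

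Among the enzymes, Gapdh, which oxidises glyceraldehyde 3-phosphate, had 449 [441 to 457] UPM after saline and 919 [911 to 927] after bleomycin, a log2 ratio of 1.03. Eno1, the ubiquitous enolase, had 57.8 [54.9 to 60.8] and 140 [137 to 143], a log2 ratio of 1.26. Pgk1, which makes ATP in the step after Gapdh, had 5.59 [4.72 to 6.58] and 16.0 [14.9 to 17.1], a log2 ratio of 1.36. Pgk1 met the floor only through the bleomycin side. These 3 enzymes of the later steps were called higher, of 13 enzymes measured, and 0 were called lower. Pkm, pyruvate kinase, had 204 and 351 UPM (0.78), and Pgam1, phosphoglycerate mutase, had 98.1 and 155 (0.66), both under 2-fold. The enzymes of the upper part had ratios near or below 0: Aldoa (aldolase A) had 408 and 427 UPM, Hk2 (hexokinase 2) 176 and 143, and the phosphofructokinase genes Pfkl 26.5 and 15.1, Pfkp 21.0 and 17.0, and Pfkm 13.8 and 8.57. Hk1 had 13.2 and 12.3 UPM, Gpi1, glucose phosphate isomerase, 87.6 and 120, and Tpi1, triose phosphate isomerase, 135 and 150. Aldoc and Eno2, the forms best known from brain, were under the floor with 2 and 67 UMIs after saline and 3 and 167 after bleomycin.

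Some of these genes have near-identical copies in the genome, and how reads that fit several genes were counted is not given in the sources used here. In the GENCODE vM21 transcripts, 73 other genes carried a stretch of at least 95 bases that was at least 97% identical to the last 400 bases of a Gapdh transcript, against 3 for Ldha, 2 each for Eno1 and Bnip3, 1 each for Gpi1, Tpi1, Pkm and Ldhb, and 0 for Pgk1. The count table held 1 of those of Gapdh, 1 of those of Eno1 and 0 of the rest. The levels of these 8 genes with copies are uncertain to that extent, and 3′ counts do not separate the splice forms of Pkm. With Gapdh, Eno1 and Pgk1 taken off the count and all other ratios unchanged, Ddit4 was the 1 gene called higher of 23 measured. This count is no check on the copies, since Pgk1 had 0 and other genes with copies stayed in.

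The lactate dehydrogenase genes had ratios of opposite sign. Ldha, the subunit favoured in lactate-producing tissues, had 296 [290 to 303] UPM after saline and 448 [443 to 454] after bleomycin, a log2 ratio of 0.60. Ldhb, the subunit favoured in lactate-oxidising tissues, had 44.8 [42.2 to 47.4] and 18.7 [17.5 to 19.9], a log2 ratio of -1.22. Ldhb was thus 13.1% [12.4 to 13.8] of the UMIs of both genes in saline fibroblasts and 3.996% [3.75 to 4.25] in bleomycin fibroblasts. Pfkfb3, which makes the phosphofructokinase activator fructose 2,6-bisphosphate, had 50.1 [47.4 to 52.9] and 22.8 [21.5 to 24.1], a log2 ratio of -1.10. Pdk1, which blocks pyruvate dehydrogenase under HIF, was under the floor with 4.12 and 2.84 UPM.

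Oxygen sensing genes lay close together in both libraries. Hif1a, the oxygen-regulated subunit of HIF, had 35.8 and 44.5 UPM, and Egln1, the main prolyl hydroxylase, had 19.6 and 16.1. Egln3, a hydroxylase gene that HIF itself induces, was under the floor with 34 UMIs after saline and 43 after bleomycin.

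Of the hypoxia-induced genes only Ddit4 was called. Ddit4, whose product REDD1 restrains mTORC1 and which also responds to glucocorticoids, had 19.5 [17.8 to 21.3] UPM after saline and 62.8 [60.6 to 64.9] after bleomycin, a log2 ratio of 1.64. Bnip3 and Bnip3l, receptors for the removal of mitochondria, had 39.3 and 52.3 UPM and 162 and 172 UPM. Ndrg1, a stress-induced gene, had 48.6 and 47.6, Adm, the vasodilator adrenomedullin, 231 and 152, and Ero1l, an oxidase of the endoplasmic reticulum, 23.3 and 17.7. Ankrd37, an ankyrin repeat gene that HIF induces, had 37 and 87 UMIs in all fibroblasts and was under the floor. The 6 measured genes ran from -0.60 to 1.64, with a median of 0.03.

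Other sets of genes moved in the same comparison, and their part in these results was not tested. The summed level of 16 immediate early genes, which cell dissociation induces, was 18444 UPM in saline and 6115 in bleomycin fibroblasts, with 12 of 16 called lower. That of 8 glucocorticoid-responsive genes was 4068 and 10140, with 4 called higher. Among these was Fkbp5, a chaperone of the glucocorticoid receptor (11.1 and 90.5 UPM). The metallothionein genes Mt1 (1985 and 5014) and Mt2 (987 and 3900) held most of that sum and were called higher. Sgk1 (157 and 334) was called higher too. Tsc22d3 (484 and 387), Per1 (61.5 and 32.8), Zbtb16 (23.6 and 35.8) and Cdkn1a (359 and 346) were not called. Of 11 genes of the ATF4 and endoplasmic reticulum stress response 7 were measured and 3 called lower, with sums of 1770 and 989 UPM. Cell cycle genes summed to 132 and 471 UPM, smooth muscle markers to 434 and 3207 and epithelial markers to 1448 and 35.0. The libraries also differed in which fibroblast states they held: apart from the adventitial cluster, each fibroblast cluster came almost wholly from 1 library. With 1 library each, treatment and library cannot be told apart. When cells were weighted equally or thinned to 2000 UMIs each, Gapdh, Ldhb and Pfkfb3 came out under 2-fold, with 0.84 for Gapdh and -0.81 for Ldhb at the least, and Pgk1 lost its call. Over the 15 alternatives Eno1 ran from 1.03 to 1.35 with the call in each, and Ddit4 from 1.43 to 1.72 with the call in 14.

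**Figure D1:**
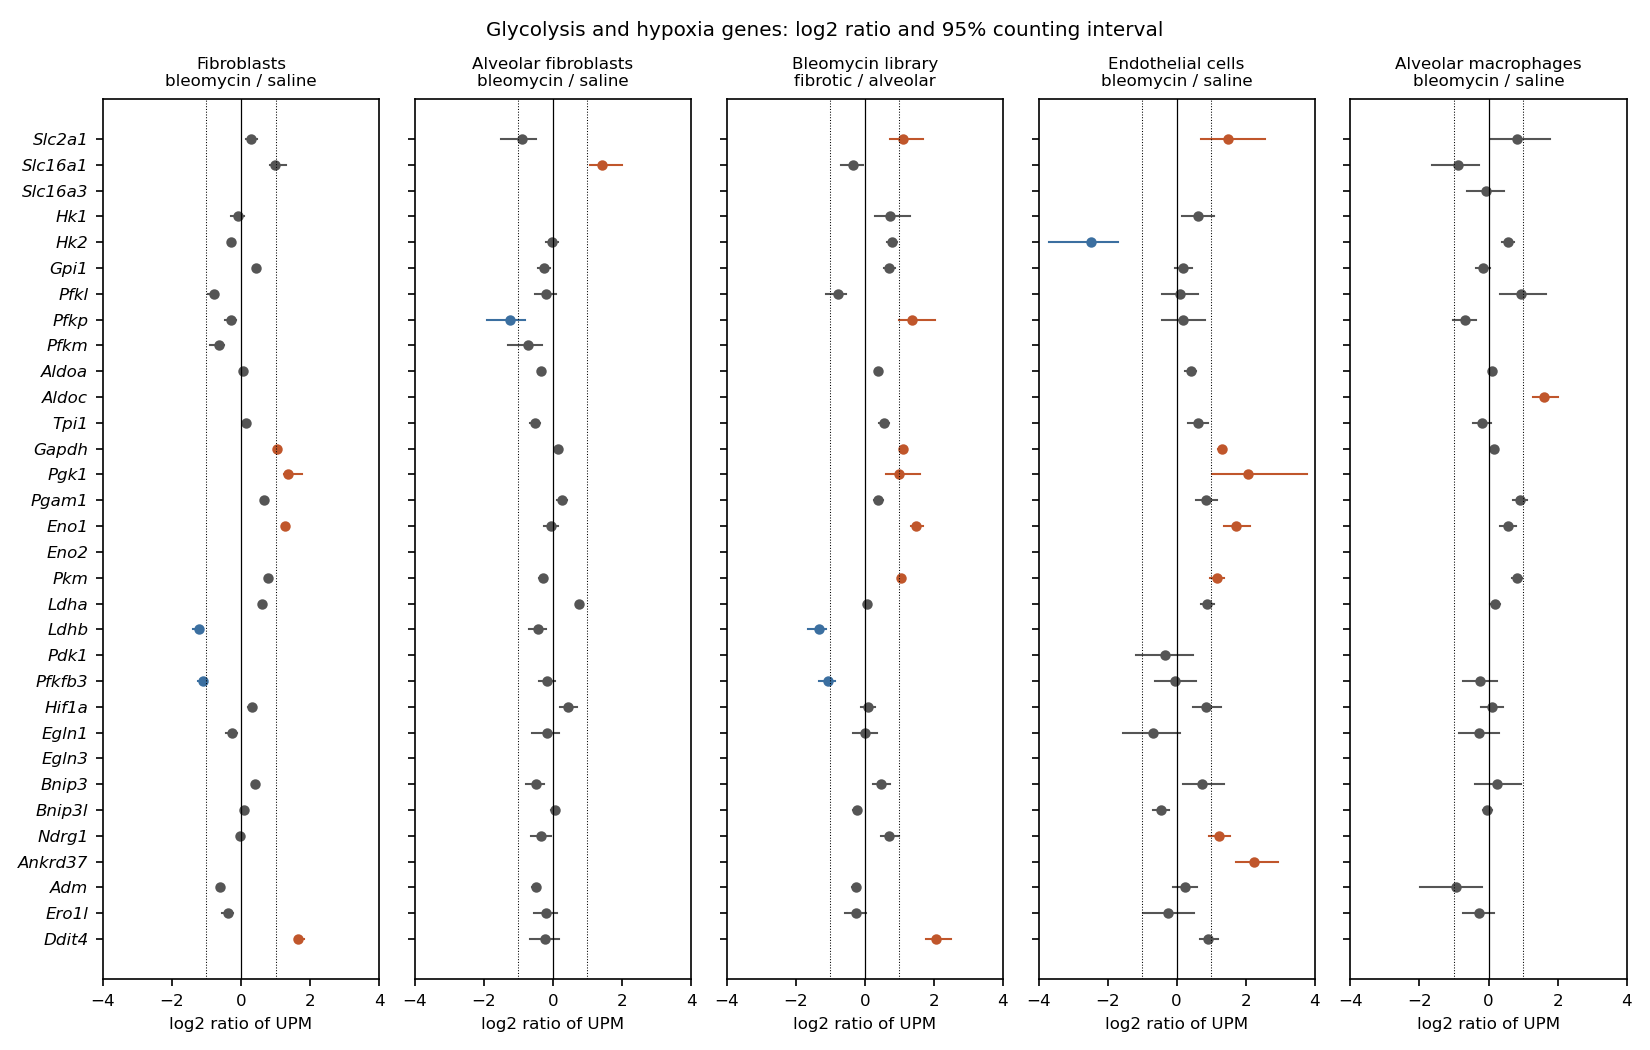
Log2 ratio of the level (x axis) of each of the 32 genes (y axis, by role) in 5 comparisons, with 95% counting intervals; genes under the floor have no point, orange is at least 2-fold higher, blue at least 2-fold lower, and dotted lines mark 2-fold. Eno1 and Gapdh stand to the right in fibroblasts, in fibrotic against alveolar fibroblasts and in endothelial cells, and near 0 in alveolar fibroblasts.

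Within alveolar fibroblasts (1583 saline and 487 bleomycin cells) the enzyme differences were not seen. Different clusters hold this class in the libraries: those led by Slc7a10/Colq and Rbp4/Clec11a after saline and that led by Wfdc12/Mfap4 after bleomycin. Of 24 measured genes 1 was called higher and 1 lower, with 2.5% and 2.95% of all 7554 measured genes. At 1.5-fold there were 2 higher and 3 lower, with 7.52% and 8.26% of all genes. The median was -0.21, and 0.03 for all genes. Gapdh had 418 [406 to 430] and 464 [445 to 484] UPM, and Eno1 had 58.4 [54.0 to 63.1] and 56.0 [49.5 to 63.0]. The Eno1 intervals overlap, and those of Gapdh lie apart by little. Slc16a1 was the gene called higher, with 6.86 [5.40 to 8.61] UPM after saline and 19.9 [16.1 to 24.3] after bleomycin (log2 ratio 1.41). Pfkp, the platelet-type phosphofructokinase, was called lower, with 18.2 [15.8 to 20.9] and 7.18 [5.00 to 9.98] (-1.23). Slc16a1 met the floor only through the bleomycin side, where it is high, and Pfkp only through the saline side. Ldha had 271 and 456 (0.75), Ldhb 48.6 and 35.7 (-0.44), and Ddit4 16.1 and 13.7 (-0.21). The remaining measured genes ranged from -0.91 (Slc2a1) to 0.44 (Hif1a). The call of Slc16a1 was lost with thinned cells or with the 32 genes among the genes used for clustering, and that of Pfkp in 6 of 12 alternatives, among them each library clustered alone (range -1.39 to -0.76).

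In adventitial fibroblasts (314 and 190 cells), which lay in 1 cluster in both libraries, 20 genes were measured and 1 was called higher and 2 lower, with 2.81% and 4.84% of all measured genes. At 1.5-fold there was 1 higher and 4 lower, with 8.36% and 14.2%. Ddit4 had 17.1 [11.6 to 24.2] and 49.8 [40.0 to 61.2] UPM (log2 ratio 1.49). Pfkp had 28.6 [21.4 to 37.5] and 12.2 [7.62 to 18.4] (-1.17), and Adm had 266 [243 to 291] and 122 [107 to 139] (-1.11). Gapdh had 391 and 484 and Eno1 61.6 and 54.2, so that in this class too neither enzyme was near 2-fold. Glucocorticoid-responsive genes summed to 2951 and 11528 UPM in these cells. Most of that was Mt1 (1503 and 6370) and Mt2 (802 and 4191), and the part of these genes was not tested. The class itself depended on the clustering: with the members among the variable genes it held 8 saline cells, without the barcode filter 3, and at resolution 0.5 it was not found.

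Inside the bleomycin library the enzymes set the fibroblast states apart. Fibrotic fibroblasts (1830 cells, of clusters led by Spp1/Fst, Anxa8/S100a4 and Cthrc1/Postn) were compared with the 487 alveolar fibroblasts, which are also those of the alveolar comparison. Of 25 measured genes 7 were called higher and 2 lower, with 4.62% and 5.76% of all 7495 measured genes. The counts at 1.5-fold were 11 higher and 3 lower, with 9.27% and 14.1% of all genes. The median was 0.47, and -0.09 for all genes. The trimmed-mean scaling factor of this comparison was -0.11 on the log2 scale, so that scaling raises every ratio by that much.

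Eno1 had 56.0 [49.5 to 63.0] UPM in alveolar and 160 [155 to 164] in fibrotic fibroblasts, a log2 ratio of 1.495. Gapdh had 464 and 992 (1.09), Pkm 184 [172 to 196] and 383 [377 to 390] (1.06), and Pgk1 8.20 and 17.5 (1.005, just past the line). Gapdh, Eno1 and Pgk1, the enzymes called between the libraries, were thus also called between states of 1 library. Pgk1 was under 10 UPM in alveolar fibroblasts and met the floor only through the fibrotic side. The bleomycin fibroblasts of the first comparison include both of these states. Genes of glucose entry and of the committed step were called too: Slc2a1 with 8.41 [6.03 to 11.4] and 19.3 [17.7 to 20.9] (1.11), and Pfkp with 7.18 [5.00 to 9.98] and 20.2 [18.7 to 21.9] (1.38). Both were likewise under 10 UPM in alveolar fibroblasts. Ddit4 had 13.7 [10.7 to 17.5] and 59.97 [57.3 to 62.8] (2.05). Ldhb had 35.7 [30.6 to 41.4] and 13.5 [12.3 to 14.9] (-1.33), and Pfkfb3 had 41.8 and 19.5 (-1.06). Ldha had 456 and 474 UPM, with an interval of the log2 ratio from -0.01 to 0.12. That pool joins unlike clusters: 529 [516 to 542] in Spp1/Fst, 527 [510 to 545] in Cthrc1/Postn and 385 [374 to 397] in Anxa8/S100a4. The alveolar cluster led by Wfdc12/Mfap4 had 457 [438 to 476]. The counts depended on the clustering: with doublets kept 2 genes were called higher, and with each library clustered alone 3. Over the alternatives Eno1 ran from 0.98 to 1.65, Gapdh from 0.80 to 1.21, Pkm from 0.64 to 1.17, Slc2a1 from 0.33 to 1.23 and Pfkfb3 from -1.19 to -0.32.

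The summed level of the 15 enzymes shows the order of the states. In the bleomycin library it was 1518 [1483 to 1553] UPM in the alveolar cluster led by Wfdc12/Mfap4 and 1521 [1465 to 1579] in adventitial fibroblasts, which cannot be ordered. It was 2154 [2126 to 2182] in the cluster led by Ctla2a/Serpina3m and 2163 [2137 to 2189] in that led by Spp1/Fst, again overlapping. It was 2825 [2795 to 2856] in the Anxa8/S100a4 cluster, 3341 [3297 to 3386] in the Cthrc1/Postn cluster and 3429 [3373 to 3485] in cycling fibroblasts, and the last pair overlap. The saline clusters of at least 100 cells ran from 1576 in Rbp4/Clec11a to 1822 in Adh7/Pi16. The 25 saline cells of the Spp1/Fst cluster had 2123 [1951 to 2307], an interval that holds the values of the Spp1/Fst and Ctla2a/Serpina3m clusters after bleomycin. The alveolar and adventitial clusters of the bleomycin library thus overlapped the lowest of these saline clusters, and the other bleomycin states lay above these 6 saline clusters, though only Anxa8/S100a4, Cthrc1/Postn and cycling cells lay above the saline Spp1/Fst cells. Cthrc1, Postn and Spp1 are genes of matrix-making fibroblasts, and Msln, a mesothelial gene, was among the leading genes of the Anxa8/S100a4 cluster.

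Depth ran alongside this order, and its part was tested no further than by thinning. The median UMIs per cell were 9483 and 8245.5 in the alveolar and adventitial clusters, 12003.5 and 13836 in the Ctla2a and Spp1 clusters, and 17099, 17699 and 22271 in the Anxa8, Cthrc1 and cycling clusters. With every cell thinned to 2000 UMIs the enzyme sums were 1473, 1461, 2019, 2028, 2740, 3201 and 3242 in that order. Without Gapdh, Eno1 and Pgk1 the sums were 987, 976, 1287, 1332, 1599, 1638 and 1664. Cell cycle genes summed to 3631 UPM in the cycling cluster, 289 in the Cthrc1/Postn cluster and 123 to 188 in the other 5, and their part in the enzyme sums was not tested.

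**Figure D2:**
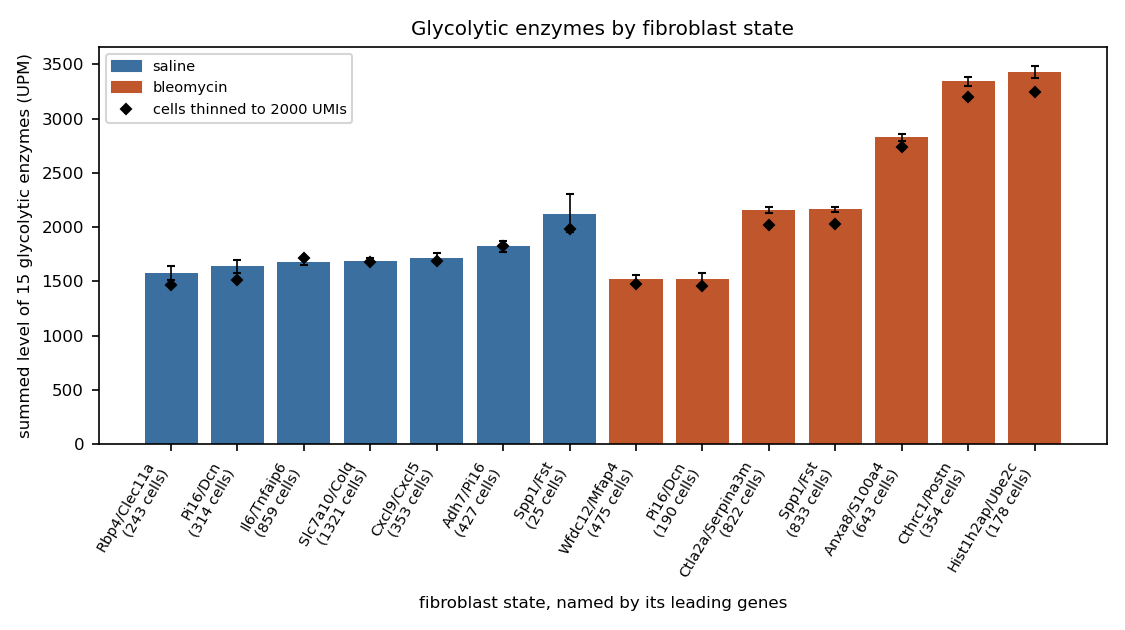
Summed level of the 15 glycolytic enzymes in UPM (y axis) in fibroblast clusters of at least 20 cells (x axis, named by leading genes), with 95% counting intervals; diamonds show the same sums with each cell thinned to 2000 UMIs. The bleomycin clusters run from 1518 to 3429 UPM, while the saline clusters lie between 1576 and 2123.

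Single enzymes followed the sum, with exceptions. Pkm ran from 155 UPM in adventitial to 461 in Cthrc1/Postn and 552 in cycling bleomycin fibroblasts, and Eno1 from 54.2 to 208 and 224. Hk2, an inducible hexokinase, went another way: it was highest after saline in the Il6/Tnfaip6 cluster, at 294 UPM, against 77.6 in the Slc7a10/Colq cluster, and within the bleomycin library it was 215 in Ctla2a/Serpina3m and 77.3 in cycling cells. Among the fibroblast clusters, those with the most Hk2 were thus not those with the most Pkm or Eno1. Immediate early genes summed to 24664 UPM in the Il6/Tnfaip6 cluster, the highest of the clusters, and their part in its Hk2 level was not tested. Pfkl, the liver-type phosphofructokinase, ran against Pfkp, with 24.9 UPM in the alveolar bleomycin cluster and 7.67 in the Anxa8/S100a4 cluster. Pfkp had 6.69 and 24.3 in the same clusters. Of the UMIs of all 3 phosphofructokinase genes, Pfkp took 17.1% [12.2 to 22.9] in alveolar and 46.4% [43.7 to 49.1] in fibrotic fibroblasts of the bleomycin library.

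Ldhb was lowest where the enzyme sum was highest. Its level was 34.1 UPM in the alveolar and 41.5 in the adventitial cluster, 26.8 and 24.3 in Ctla2a/Serpina3m and Spp1/Fst, and 6.29, 6.21 and 5.62 in Anxa8/S100a4, Cthrc1/Postn and cycling cells. The saline clusters of at least 100 cells lay between 39.7 and 64.9, and the 25 saline Spp1/Fst cells had 30.5 [13.2 to 60.1], which overlaps the bleomycin Spp1/Fst cells. The 3 states with the highest enzyme sums were therefore the 3 with the lowest Ldhb, while Ldha ran from 317 in adventitial to 585 in cycling cells. In Anxa8/S100a4 cells Ldha was 385, under the 457 of the alveolar cluster.

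The hypoxia-induced genes had their own order among the bleomycin states. Ddit4 stood at 98.6 UPM in Ctla2a/Serpina3m and 97.4 in Anxa8/S100a4, against 13.8 in the alveolar cluster and 31.8 in Spp1/Fst. Bnip3 was also highest in that pair, with 92.5 and 72.7 UPM against 22.5 in cycling cells and 35.4 in Cthrc1/Postn. Adm had 180 UPM in Ctla2a/Serpina3m and in the alveolar cluster, 241 in Anxa8/S100a4, 67.7 in cycling cells and 64.2 in Cthrc1/Postn. The Cthrc1/Postn and cycling states, highest in the enzyme sum, were thus the lowest of the 7 in Adm. Glucocorticoid-responsive genes summed to 15904 UPM in Ctla2a/Serpina3m and 14706 in Anxa8/S100a4, against 3872 to 11528 in the other bleomycin states. Their part in the Ddit4 and Bnip3 levels was not tested. In bleomycin fibroblasts as a whole, Mt1 and Mt2 made up most of this sum.

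**Figure D3:**
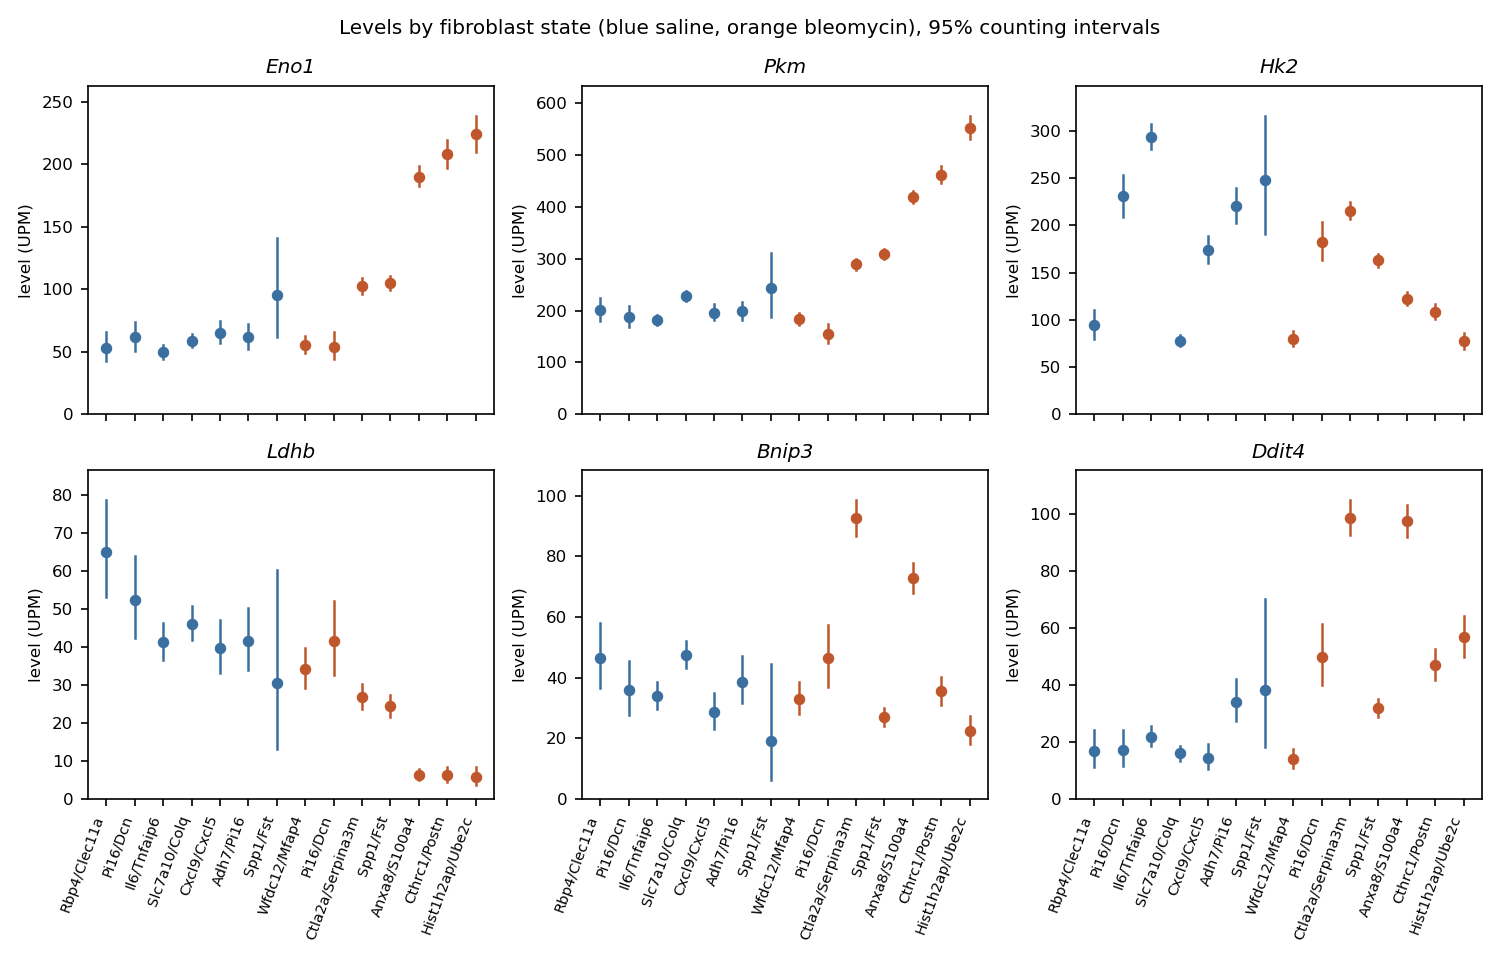
Level in UPM (y axes, from 0) of Eno1, Pkm, Hk2, Ldhb, Bnip3 and Ddit4 in each fibroblast cluster of at least 20 cells (x axis, in the order of the enzyme sum within each library), with 95% counting intervals. Eno1 and Pkm climb to the right among the bleomycin clusters, Ldhb drops to between 5.62 and 6.29 in the last 3, and Bnip3 and Ddit4 peak in the Ctla2a/Serpina3m and Anxa8/S100a4 clusters.

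The bases before the start of the genes called in fibroblasts are shown because HIF is known to regulate many members, though not all. Its binding core can be looked for in these bases, and a match does not show that HIF acts on the gene. The core of the hypoxia response element is ACGTG or GCGTG. Both words were searched on both strands in the 250 bases before the most upstream start in RefSeq (build GRCm38.p6), with overlapping matches counted, and ACGTG is also part of the E-box CACGTG. Of 30 members with an entry, 24 held at least 1 match, against 38.6% of all 27025 genes, and 16 (53.3%) held ACGTG, against 16.5%. These shares were not taken at equal base composition, and HIF binding was not measured. All 6 genes called in fibroblasts held a match: Gapdh held 2 of GCGTG, Pgk1 2 of ACGTG, Eno1 and Ldhb 1 of GCGTG each, Pfkfb3 1 of ACGTG, and Ddit4 1 of each. The 4 genes called higher and the 2 called lower thus all held the core. The 4 windows that overlap no GENCODE exon follow, 5′ to 3′ on the strand of the gene, with the matches on either strand in capitals. They are chr6:125165774-125166023 (minus strand) for Gapdh, which lies inside the gene as GENCODE draws it, chrX:106186850-106187099 (plus) for Pgk1, chr4:150236458-150236707 (plus) for Eno1 and chr6:142507958-142508207 (minus) for Ldhb.
Gapdh: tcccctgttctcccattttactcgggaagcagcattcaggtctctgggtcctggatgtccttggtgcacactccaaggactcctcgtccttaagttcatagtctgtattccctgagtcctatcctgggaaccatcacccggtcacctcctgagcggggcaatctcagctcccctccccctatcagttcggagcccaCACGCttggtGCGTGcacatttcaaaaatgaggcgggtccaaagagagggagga
Pgk1: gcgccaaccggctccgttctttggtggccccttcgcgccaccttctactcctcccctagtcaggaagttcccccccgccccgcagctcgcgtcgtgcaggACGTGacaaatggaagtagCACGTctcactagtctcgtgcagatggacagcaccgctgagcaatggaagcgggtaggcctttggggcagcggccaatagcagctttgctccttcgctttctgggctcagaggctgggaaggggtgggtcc
Eno1: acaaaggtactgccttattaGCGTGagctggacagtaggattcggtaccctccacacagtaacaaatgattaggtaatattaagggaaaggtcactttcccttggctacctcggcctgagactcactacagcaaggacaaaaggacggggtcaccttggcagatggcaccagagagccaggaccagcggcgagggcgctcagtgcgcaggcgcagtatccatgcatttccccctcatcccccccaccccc
Ldhb: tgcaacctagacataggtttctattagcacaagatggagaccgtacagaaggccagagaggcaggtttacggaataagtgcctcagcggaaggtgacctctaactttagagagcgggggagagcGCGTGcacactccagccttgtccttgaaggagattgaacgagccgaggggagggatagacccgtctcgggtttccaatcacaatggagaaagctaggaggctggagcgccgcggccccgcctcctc

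Endothelial cells (149 saline and 184 bleomycin cells) showed the widest shift of the 5 comparisons by the median. Of 25 measured genes 7 were called higher and 1 lower, with 7.46% and 9.4% of all 6780 measured genes. The counts at 1.5-fold were 14 higher and 2 lower, with 17.5% and 18.9% of all genes. The median was 0.61, and 0.03 for all genes. The class differs in makeup: lymphatic endothelial cells were 19 of the saline and 70 of the bleomycin cells, and general capillary cells 104 and 96. Cell cycle genes moved with it, 14 of 15 measured being called higher, and summed to 1998 UPM in the bleomycin lymphatic cells. Fibroblast markers summed to 1291 UPM after saline and 413 after bleomycin, and epithelial markers to 1511 and 24.6. Of 15 immediate early genes measured 13 were called lower, with sums of 16451 and 6683 UPM. The part of these in the results was not tested.

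Slc2a1 had 11.1 [5.91 to 19.0] and 33.1 [25.4 to 42.5] UPM in saline and bleomycin endothelial cells (log2 ratio 1.496). Gapdh had 648 and 1609 (1.31), Eno1 61.4 [48.1 to 77.4] and 204 [184 to 226] (1.72), Pkm 223 and 502 (1.17) and Pgk1 6 and 46 UMIs (2.06). Pgk1 met the floor here only through the bleomycin side. Eno1 had 328 UPM in the lymphatic cells of the bleomycin library, and general capillary cells had 59.1 after saline and 78.5 after bleomycin, with overlapping intervals. Gapdh had 2283 UPM in those lymphatic cells, and 555 [507 to 606] and 894 [831 to 961] in capillary cells, whose intervals do not overlap (0.69). Hk2 was called lower, with 40.1 and 6.41 UPM (-2.47), but 36.2% of its 47 saline UMIs came from 1 cell. Hk2 met the floor only through the saline side. Hk2 was 7.89% [4.15 to 13.4] of the UMIs of both hexokinase genes in bleomycin endothelial cells, and 92.1% in bleomycin fibroblasts. These shares are of 3′ counts, and how far each gene's 3′ end is captured was not measured.

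Within general capillary cells, which lay in 1 cluster in both libraries with medians of 7861 and 7308.5 UMIs, the hypoxia-induced genes stood out. Of 18 measured genes 5 were called higher and 1 lower, with 4.26% and 8.55% of all 4832 measured genes. At 1.5-fold 9 were higher and 1 lower, with 12.2% and 16.6%. Ankrd37 had 15.6 [8.53 to 26.2] UPM after saline and 236 [204 to 271] after bleomycin, a log2 ratio of 3.83. Ddit4 had 91.4 [72.7 to 113] and 379 [339 to 424] (2.04), and Bnip3 had 30.1 [19.8 to 43.8] and 101 [81.0 to 126] (1.72). Ndrg1 had 73.6 [56.9 to 93.6] and 208 [178 to 241] (1.49). Of the 7 hypoxia-induced genes 4 were thus called higher here, and their summed level was 573 and 1241 UPM. Of 8 glucocorticoid-responsive genes 1 was called higher in these cells, Fkbp5 with 17.8 and 127 UPM (2.76). The 8 summed to 2467 and 2507, a sum that joins ratios of opposite sign. Mt1 had 516 and 286 UPM, Mt2 341 and 175 and Per1 98.1 and 61.6. Sgk1 had 268 and 435, Cdkn1a 833 and 958, Tsc22d3 366 and 413 and Zbtb16 27.9 and 50.7. Fibroblast markers summed to 1622 and 418 UPM and cell cycle genes to 375 and 623, and the part of these was not tested. Pkm had 223 and 447 (1.0005, just past the line), and Hif1a 65.8 and 128 (0.95). Adm was called lower, with 84.7 [66.8 to 106] and 39.9 [27.4 to 56.0] (-1.07).

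The Ankrd37 difference was spread over cells. After saline 11 of 104 capillary cells (10.6% [5.40 to 18.1]) held a UMI of it and after bleomycin 50 of 96 (52.1% [41.6 to 62.4]). With each cell thinned to 2000 UMIs these were 2 and 29 cells, 1.92% and 30.2%. The highest cell held 25 of the 195 UMIs, and without it the level after bleomycin was 209 UPM and the log2 ratio 3.66. In other cells the gene was scarce: 0.982% of saline and 2.30% of bleomycin fibroblasts held a UMI (median depths 6830 and 13599), and 0 of 70 bleomycin lymphatic cells, which allows a share of up to 4.29%. The capillary shares in both libraries lay above those of fibroblasts. The saline arterial cells (26 cells) had 66.5 [35.4 to 114] UPM, above the saline capillary cells, and the 18 bleomycin arterial cells were too few for a level.

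Lymphatic endothelial cells of the bleomycin library (70 cells) differed from capillary cells of that library in which hypoxia-induced genes they carried. Ndrg1 was high in both, with 294 UPM in lymphatic and 208 in capillary cells, and Adm was 173 against 39.9. Bnip3 was 3.26 against 101, Ankrd37 0 against 236 and Ddit4 154 against 379. The intervals do not overlap for any of these 5 genes. With 19 cells the saline lymphatic cells were too few for levels, so levels were not compared with saline. A UMI of Ndrg1 was found in 14 of 19 saline and 64 of 70 bleomycin lymphatic cells, and of Ddit4 in 11 and 43. With cells thinned to 2000 UMIs the Ndrg1 shares were 57.9% [33.5 to 79.7] and 42.9% [31.1 to 55.3]. Those of Ddit4 were 42.1% [20.3 to 66.5] and 25.7% [16.0 to 37.6]. Both genes were thus also found in lymphatic cells after saline, and the thinned intervals overlap.

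**Figure D4:**
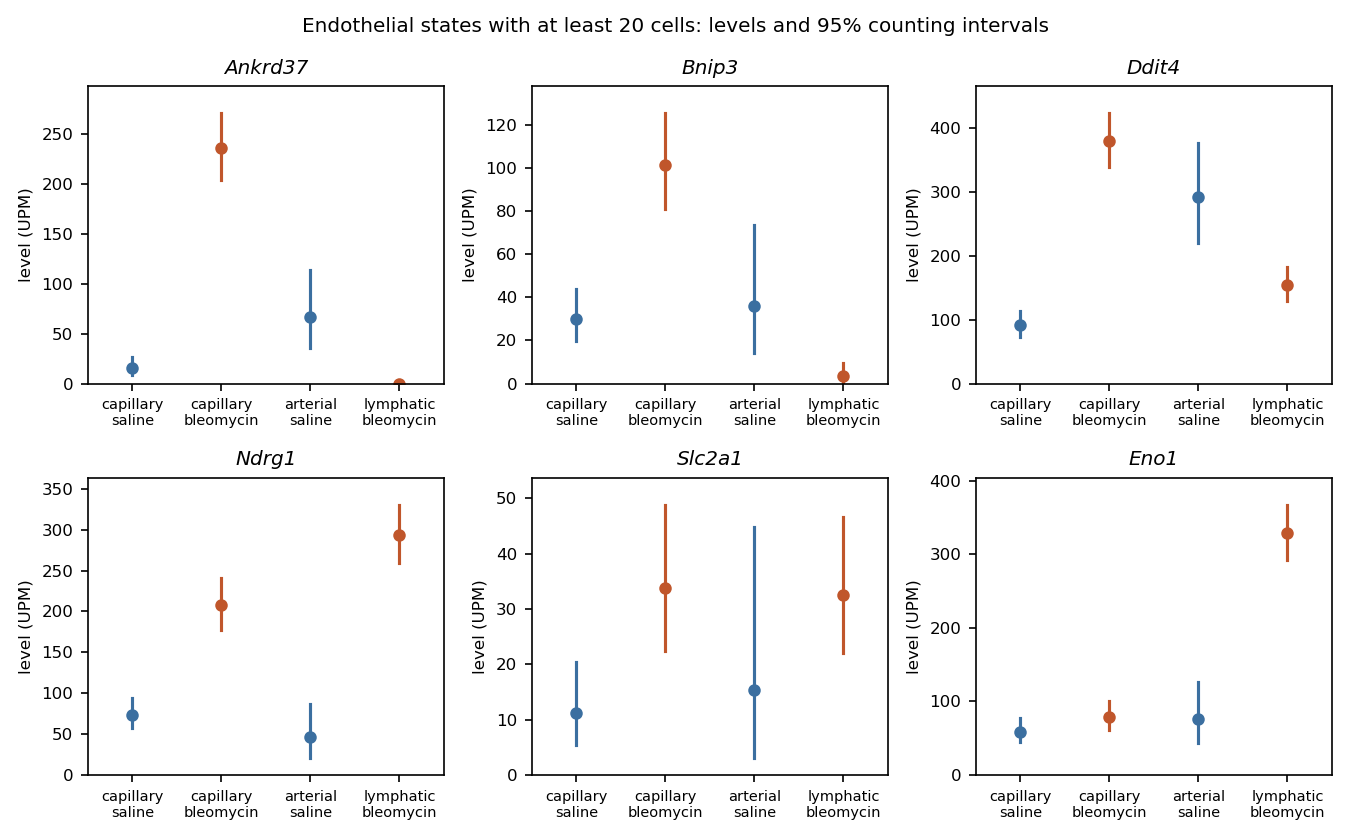
Level in UPM (y axes, from 0) of 6 genes in the endothelial clusters with at least 20 cells of a library, with 95% counting intervals, blue for saline and orange for bleomycin. Ankrd37, Bnip3 and Ddit4 peak in bleomycin capillary cells (236, 101 and 379 UPM), and Eno1 in bleomycin lymphatic cells (328 UPM).

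In alveolar macrophages (637 saline and 337 bleomycin cells) 1 gene of 22 measured was called higher and 0 lower, with 2.6% and 4.69% of all 6846 measured genes. At 1.5-fold 5 were higher and 3 lower, with 7.41% and 15.2%. The median was 0.11, and -0.11 for all genes, and the trimmed-mean scaling factor was -0.10, so that scaling raises every ratio by that much. Mostly different clusters hold the class: that led by Fabp1/Krt79 after saline and that led by Wfdc17/Tyrobp after bleomycin. The smaller cluster led by Mmp12/Ccl17 held 79 saline and 20 bleomycin cells. The gene was Aldoc, aldolase C, with 31.3 [25.2 to 38.5] UPM after saline and 97.7 [85.6 to 111] after bleomycin (log2 ratio 1.61, and 1.4985 to 1.71 over 13 alternatives, each with the call). A UMI of it was found in 72 of 637 and 139 of 337 cells, 11.3% and 41.2%, at median depths of 4161 and 6743 UMIs. Fibroblasts held 2 and 3 UMIs of Aldoc in all, and endothelial cells 1 and 2. It was 4.32% [3.49 to 5.28] of the UMIs of both aldolase genes after saline and 11.5% [10.2 to 13.0] after bleomycin.

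The other enzymes of alveolar macrophages were under 2-fold. Gapdh had 1454 and 1616 UPM, Pkm 254 and 448 (0.82), Pgam1 122 and 229 (0.91) and Pfkl 11.02 and 21.9 (0.93), and Pfkp had 81.3 and 50.1 (-0.69). With the trimmed-mean scaling Pgam1 and Pfkl were called higher as well. Ankrd37, with 3 and 2 UMIs, and Ddit4, with 11 and 18, were under the floor, and Bnip3l had 343 and 335 UPM. Epithelial markers summed to 2898 UPM in saline and 70.8 in bleomycin macrophages, and their part in these values was not tested.

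The rest of the pathway was read from lists of further genes, counted here in fibroblasts. Of 8 other glucose and lactate carriers 2 were measured and 0 called. Of 13 other isoenzymes 3 were measured and 1 was called: Bpgm, which makes 2,3-bisphosphoglycerate, had 22.0 and 60.1 UPM (1.41). Of 17 genes that regulate glycolysis and pyruvate entry 10 were measured and 1 called, Pdk4, a pyruvate dehydrogenase kinase (8.85 and 29.2 UPM, 1.61). Of 8 pentose phosphate genes all were measured and 0 called, Rpia, ribose phosphate isomerase, having the widest ratio (-0.95). Glycogen genes gave 2 lower of 8 measured: Pygm, the muscle-type phosphorylase, had 35.6 and 6.75 (-2.24), and Ppp1r3c, a glycogen-targeting phosphatase subunit, 16.7 and 4.33 (-1.73). Pdk4 met the floor only through the bleomycin side, and Pygm and Ppp1r3c only through the saline side.

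Of 10 other genes of oxygen sensing 7 were measured and 0 called in fibroblasts, with Epas1, the HIF-2 alpha subunit, at 27.2 and 15.3 UPM (-0.79). Of 22 other hypoxia-induced genes 16 were measured, 2 called higher and 1 lower. Tpbg, the trophoblast glycoprotein, had 4.58 and 26.7 (2.31), and P4ha2, a collagen prolyl hydroxylase, 12.4 and 29.4 (1.18). Tpbg met the floor only through the bleomycin side. Vegfa, the vascular growth factor and a classic HIF target, had 47.4 and 10.5 (-2.07). The median of this list was 0.37. In endothelial cells Vegfa was also called lower, with 131 and 41.1 UPM (-1.65), as was Epas1 with 1232 and 536 (-1.20). Within general capillary cells alone neither was called: Vegfa had 135 and 72.5 UPM (-0.89) and Epas1 1336 and 1066 (-0.33).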

How the data were processed

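Cells of 1 library per group were sequenced with 10x 3′ chemistry, and the submitters' processing notes name Cell Ranger 2.1.1 and the mm10 build. The deposited values are raw UMI counts per gene and barcode, not normalized. Barcodes under 500 genes, under 1000 UMIs or above 10% mitochondrial UMIs were dropped. The expected share of doublets (0.8% per 1000 barcodes) with the highest Scrublet scores, 237 and 160 barcodes, was left out, since the automatic threshold marked only 0.623% and 0.112%. Cells were clustered with scanpy 1.11.5 and leidenalg 0.10.2 (2000 variable genes, 30 components, 15 neighbours, resolution 1), leaving out the 32 genes and the listed genes. The 25 clusters were named from marker lists with thresholds set after the clusters were seen, so class names are rebuilt. UMIs were summed per class and library. No test was possible with 1 library per group. Levels carry exact Poisson intervals, shares Clopper-Pearson intervals and ratios exact conditional binomial intervals, at 95%. Members called in any comparison were described with their levels, though not in every comparison that called them, and the others by ratio and counts. Of each further list, at most 4 called genes with the largest ratio in fibroblasts were named, or at most 2 measured ones where none was called. Vegfa and Epas1 in endothelial cells were added after their values were seen. The members and lists were chosen with earlier results of these data known. The calling rule was tried on simulated Poisson counts with changes past the 2-fold line. These counts held no spread between mice, libraries or cells, so they do not show how calls would hold between mice. Near-identical copies were searched with BLAST+ 2.17.0, and promoters came from RefSeq (GRCm38.p6). Entries for Bnip3l and Ndrg1 were not used here.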

Additional observations from a re-analysis of the deposited data

How the results depend on the processing

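No paired analysis was possible because each group has 1 library. Of the counts under alternatives, which have no direction, 104 stayed within 1.5 times the main count and 44 did not. Among the other values under alternatives, 1546 were marked as the same and 236 as moved. The cause was not tested. In fibroblasts, 0 genes were called lower with per-cell means, with thinned cells and with a floor of 50 UPM, 1 with a prior of 5 UPM and without the Il6-high and inflammatory clusters, and 5 at 1.5-fold. The genes called higher there were 8 at 1.5-fold, 2 with the floor of 50 UPM and 1 without Gapdh, Eno1 and Pgk1. In alveolar fibroblasts, 2 genes were called lower with per-cell means, with thinned cells and with the members among the variable genes, 3 at 1.5-fold, and 0 with the prior of 5 UPM, no barcode filter, doublets kept, libraries clustered alone or the floor of 50 UPM. Those called higher were 0 with thinned cells, with the members among the variable genes and with the floor of 50 UPM, and 2 at 1.5-fold. In alveolar macrophages, 3 were called higher with trimmed-mean scaling, 2 with thinned cells and 5 at 1.5-fold, and 1 was called lower without mitochondrial and ribosomal genes and 3 at 1.5-fold. In endothelial cells, 0 were called lower with thinned cells and with the floor of 50 UPM, 2 at 1.5-fold and without a filter on low counts, and 14 were called higher at 1.5-fold and 4 without Gapdh, Eno1 and Pgk1. For fibrotic against alveolar fibroblasts, 1 was called lower with trimmed-mean scaling, the prior of 5 UPM and the members among the variable genes, and 0 with thinned cells and the floor of 50 UPM. Those called higher were 3 without a barcode filter, with libraries clustered alone and with the floor of 50 UPM, 2 with doublets kept, 11 at 1.5-fold and 4 without Gapdh, Eno1 and Pgk1. The alternatives without Gapdh, Eno1 and Pgk1, with general capillary cells only and without the top Ankrd37 cell were chosen after seeing the data. Leaving out Gapdh, Eno1 and Pgk1 only took them off the counts and changed no other ratio, so it is no check on the other calls. Resolution 0.5 left too few bleomycin alveolar fibroblasts for a value. The alternative without Il6-high cells was not run for alveolar fibroblasts, which hold none.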
